A study of Mus musculus with 6 samples.

Results

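The genes described belong to families of histone lysine methyltransferases and demethylases, other than the families named for action on lysine 9 of histone H3. They were chosen by name alone: every protein-coding row of the deposited table whose symbol belongs to the Setd, Kmt2, Kmt5, Nsd, Ezh, Smyd, Kdm1, Kdm2, Kdm5 or Kdm6 families, together with Ash1l and Dot1l, and without the Y-linked Kdm5d. This gave 37 of 16415 listed genes, 28 of methyltransferase families and 9 of demethylase families, and all 37 passed the filter on low values. Some of these act mainly on non-histone proteins or have no known activity on histones. Bulk messenger RNA was sequenced from mouse trigeminal ganglion, the sensory ganglion of the head, in 3 libraries labelled SETDB2-up and 3 labelled NC-up. All 6 carry a wild-type genotype in the labels, which give no age, do not spell out either treatment name or how it was given, and do not say whether the libraries of a group came from separate animals. P-values therefore measure the spread between these libraries, which may be technical. In a bulk sample, fewer cells of a type and less RNA per cell cannot be told apart.

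Histone lysine methylation is written by SET-domain enzymes, and by the structurally distinct DOT1L, and removed by 2 kinds of demethylase: flavin-dependent amine oxidases (the KDM1 family) and iron- and oxoglutarate-dependent Jumonji enzymes (here KDM2, KDM5 and KDM6). Methylation of H3K4 marks promoters and enhancers, that of H3K36 and H3K79 marks transcribed gene bodies, that of H3K27 is the mark of Polycomb repression, and that of H4K20 is linked to cell division and compact chromatin. Germline loss-of-function variants of several of these genes, among them KMT2D, NSD1, SETD5 and KDM6A, cause disorders of growth and cognition in people.

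The recovered reads summed to between 19334997 and 23501386 per library. Setdb2, the gene the groups are named for, had normalised read counts of 113, 97.6 and 104 in the SETDB2-up libraries, against 69.9, 58.4 and 71.5 in the NC-up libraries, with every SETDB2-up value above every NC-up value. Its log2 fold change, here and below a difference of log2(normalised read count + 1), was 0.65 ± 0.19 SE (adjusted p = 0.0253 by limma). After a correction that removes each library's trend with transcript GC content it was 0.48 (adjusted p = 0.156). The summed level of 8 neuronal markers ranged from 357841 to 383404 in SETDB2-up and from 357331 to 379811 in NC-up. The summed level of 10 hepatocyte markers was 2678, 6245 and 81.2 in SETDB2-up libraries 1, 2 and 3, and 45.97 to 53.6 in NC-up, and that of 5 keratinocyte markers was 114 to 127 in SETDB2-up and 173 to 518 in NC-up. Of the hepatocyte markers 8 of 10 rose at an adjusted p under 0.05, and of the keratinocyte markers 4 of 5 fell. Summed fibroblast markers were 21050.2 to 24693 in SETDB2-up and 24070.1 to 28808 in NC-up, and 3 of 6 fell. Summed Schwann cell markers were 257614 to 292611 in SETDB2-up and 290337 to 304095 in NC-up, and 3 of 6 fell. Summed skeletal muscle markers were 34.2 to 93.7 in SETDB2-up and 97.5 to 244 in NC-up, and 3 of the 4 in the table fell. Summed endothelial markers were 2776 to 2871 in SETDB2-up and 2926 to 3120.2 in NC-up, and 1 of 6 fell. Of the remaining lists, 1 of 8 neuronal markers rose, 1 of 5 erythroid markers fell, and no satellite glia or macrophage marker passed. The part of these other cell types in the results below was not tested, other than by leaving out libraries.

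Levels between genes were compared as normalised reads per kilobase of the longest annotated transcript. Setd3, which methylates a histidine of actin, had the highest mean of the members in both groups, at 1224 ± 12.6 in SETDB2-up and 1115 ± 78.3 in NC-up (SD, n = 3 each, reads per kilobase). Next in both groups came Smyd2, a lysine methyltransferase of p53 and other non-histone proteins, at 785 ± 62.9 in SETDB2-up and 810.1 ± 80.7 in NC-up, followed in NC-up by Kmt5a, the H4K20 monomethyltransferase, at 655 ± 47.6 in SETDB2-up and 704 ± 37.6 in NC-up. The values of these 2 genes overlapped in NC-up and did not in SETDB2-up. Setd7, which adds 1 methyl group to H3K4 and to many non-histone proteins, had 731 ± 22.5 in SETDB2-up and 606 ± 26.5 in NC-up, above Kmt5a in SETDB2-up and below it in NC-up, and was the most abundant of the 8 genes of the H3K4 group. At the other end, Smyd1, a muscle gene, had 14.2 ± 3.93 in SETDB2-up and 12.8 ± 1.57 in NC-up, and Ezh2, the Polycomb H3K27 methyltransferase of dividing cells, had 24.9 ± 3.19 in SETDB2-up and 26.1 ± 2.52 in NC-up. Its paralogue Ezh1, which predominates in non-dividing cells, had 460.1 ± 11.2 in SETDB2-up and 421 ± 37.8 in NC-up. Among demethylases Kdm1a was the most abundant, at 335 ± 24.98 in SETDB2-up and 464 ± 21.8 in NC-up, and Kdm2b the least, at 55.7 ± 2.85 in SETDB2-up and 51.9 ± 1.31 in NC-up, a level that overlapped that of Kdm1b in NC-up.

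**Figure D1:**
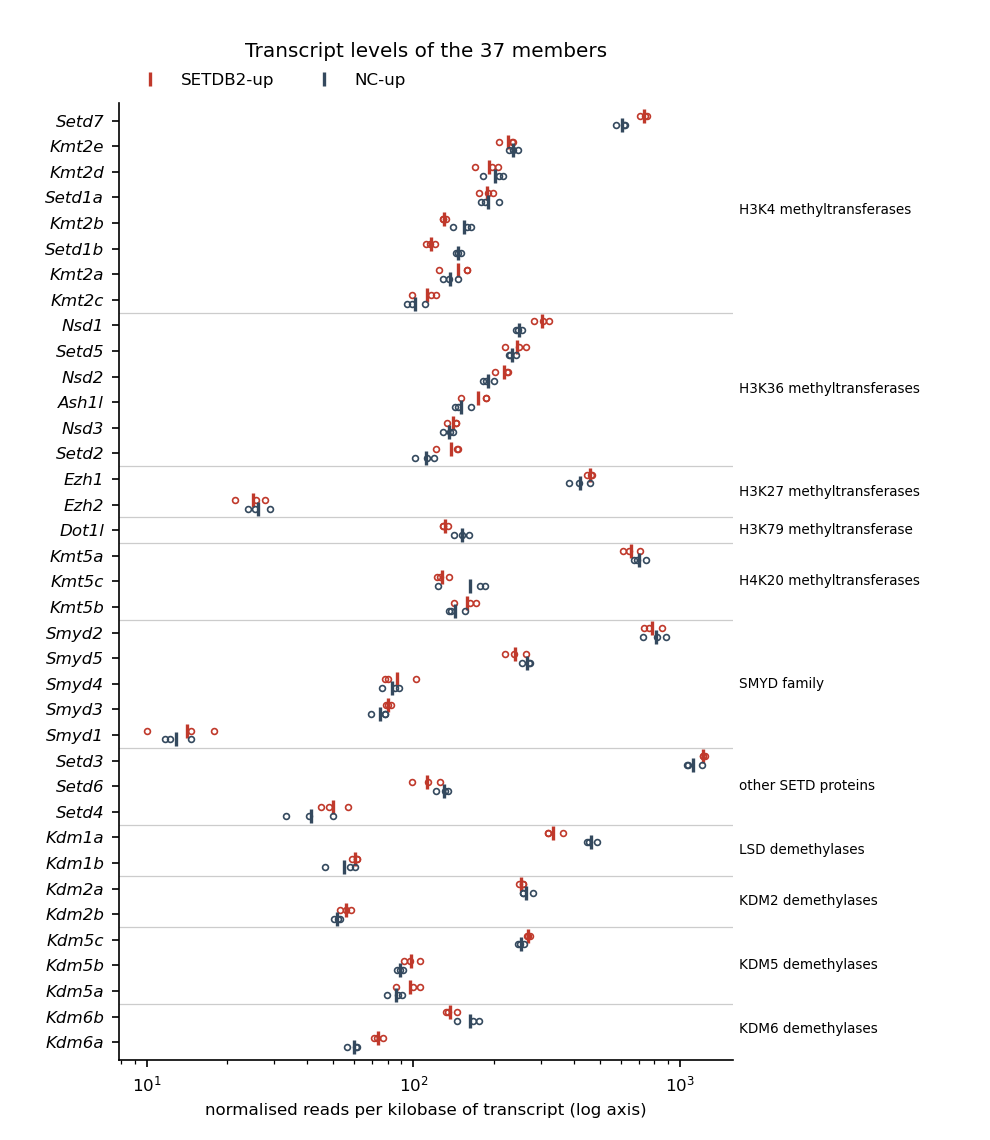
Normalised reads per kilobase of transcript (log axis) for each of the 37 members, by role. Open circles are single libraries and vertical ticks are group means, SETDB2-up above NC-up for each gene. Levels span from Smyd1, at 14.2 in SETDB2-up and 12.8 in NC-up, to Setd3, at 1224 in SETDB2-up and 1115 in NC-up.

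The question put to these genes was whether their transcripts differed between SETDB2-up and NC-up ganglia. Of the 37 members, 7 passed the test (limma, Benjamini-Hochberg adjusted p under 0.05 over 16387 genes): Setd7, Nsd1, Setd2 and Kdm6a rose, and Kdm1a, Setd1b and Kmt2b fell. That is 18.9% of the members, beside 16.4% of all genes tested; 10.8% rose, beside 7.71%, and 8.11% fell, beside 8.71%. The share of members past the test was thus near that of all genes. The sizes were modest, with log2 fold changes between -0.47 and 0.31, and the median over the 37 was 0.09, beside 0.00 over all genes tested. The values of the 3 SETDB2-up libraries lay above those of the 3 NC-up libraries for 9 members (24.3%, beside 16.8% of all genes tested) and below them for 5 (13.5%, beside 16.4%). After the GC correction 3 members passed, Setd7 and Nsd1 upward and Kdm1a downward (8.11%, beside 5.42% of 15507 genes; 1.84% of all genes rose there and 3.58% fell). With edgeR and TMM normalization on the recovered reads 8 members passed, the 7 and Kdm6b (21.6%, beside 16.5% of 16346 genes). There 7.4% of all genes rose and 9.08% fell. EdgeR with RLE or upper-quartile normalization, or with TMM and no filter, did not pass Kdm6b. DESeq2, and limma after TMM rescaling, did. Without SETDB2-up libraries 1 and 2, which hold the hepatocyte transcripts, a single SETDB2-up library is left, assumed to vary like NC-up; there Setd7 rose and Kdm1a and Setd1b fell (8.11% of the members, beside 2.73% of all genes tested, with 0.891% of all genes rising and 1.84% falling).

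**Figure D2:**
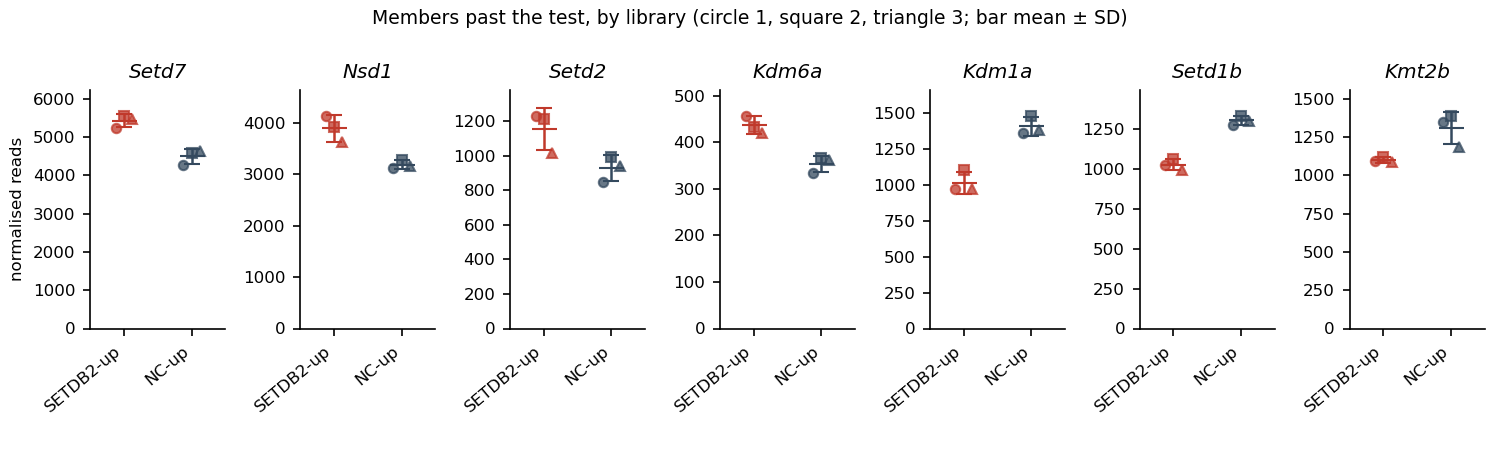
Normalised reads in each library for the 7 members past the test, SETDB2-up left of NC-up, with group means and SD (n = 3 each). In each of the 7 the 3 SETDB2-up libraries lie on 1 side of the 3 NC-up libraries; for Setd2 the nearest values are 1012 in SETDB2-up and 994 in NC-up.

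Kdm1a had the largest change of the members past the test and was lower in SETDB2-up. It encodes LSD1, which removes 1 or 2 methyl groups from H3K4 as part of the CoREST repressor complex. Kdm1a (gene 99982, chromosome 4, 136550533 to 136602787, minus strand, GRCm38) had normalised read counts of 972, 1101 and 967 in the SETDB2-up libraries, against 1356, 1479.7 and 1378 in the NC-up libraries. The highest SETDB2-up value lay well under the lowest NC-up value. Means were 1013 ± 75.6 in SETDB2-up and 1405 ± 65.9 in NC-up (SD, n = 3 each), and the log2 fold change was -0.47 ± 0.07 SE (adjusted p = 3.23e-04 by limma). It was called in 20 of 20 alternative analyses, with adjusted p up to 0.00536, and stood at -0.45 after the GC correction. The 3′ part of Kdm1a overlaps Luzp1 on the opposite strand over 4193 bases, and Luzp1 has 2.90 times its reads. Luzp1 moved the other way, with a log2 fold change of 0.24 ± 0.06 SE (adjusted p = 0.00941 by limma; 0.17 and adjusted p = 0.0593 after the GC correction), and the sources used here do not say whether reads were assigned by strand. Its paralogue Kdm1b (LSD2) had 306, 305 and 293 in the SETDB2-up libraries, against 299.8, 233 and 289.6 in the NC-up libraries. Those groups overlapped and the gene did not pass (log2 fold change 0.14 ± 0.12 SE, adjusted p = 0.443 by limma).

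Of the other 7 demethylases, 1 passed. Kdm6a, the X-linked H3K27 demethylase UTX (gene 22289, chromosome X, 18160862 to 18279936, plus strand), had 458, 433 and 421 in the SETDB2-up libraries, against 335, 366 and 363 in the NC-up libraries. The SETDB2-up values were all higher, and the log2 fold change was 0.30 ± 0.10 SE (adjusted p = 0.0391 by limma). This call was lost after the GC correction (log2 fold change 0.13, adjusted p = 0.468) and without any 1 library other than SETDB2-up library 3, with log2 fold changes of 0.26 to 0.33 and adjusted p of 0.0614 to 0.18, and without SETDB2-up libraries 1 and 2 together (0.25, adjusted p = 0.540). Kdm6b (JMJD3), the inducible enzyme of the same reaction, leaned the other way, at 899.6, 969 and 881 in the SETDB2-up libraries, against 1171, 1109 and 967 in the NC-up libraries. SETDB2-up library 2 lay just above NC-up library 3, and the log2 fold change of -0.24 ± 0.08 SE missed the threshold (adjusted p = 0.0519 by limma). EdgeR with TMM normalization passed it (adjusted p = 0.0498 by edgeR), and Kdm6b was called in 5 of 20 alternatives. After the GC correction its log2 fold change was -0.025 (adjusted p = 0.903 by limma). Whether Kdm6a and Kdm6b differ in their response was not tested. The H3K4 demethylases Kdm5a, Kdm5b and the X-linked Kdm5c had positive log2 fold changes of 0.17, 0.14 and 0.09, and none passed. For Kdm5b the groups did not overlap, at 802, 919 and 849.5 in the SETDB2-up libraries, against 796, 757 and 778 in the NC-up libraries. Kdm5c also had higher values in each SETDB2-up library, at 1721, 1740.3 and 1759 in the SETDB2-up libraries, against 1590.1, 1683 and 1625 in the NC-up libraries. The H3K36 demethylases with a CpG-binding zinc finger, Kdm2a and Kdm2b, had log2 fold changes of -0.06 ± 0.06 SE and 0.10 ± 0.11 SE. Neither passed. For Kdm2a the SETDB2-up values lay just below the NC-up values, with 2209 in SETDB2-up and 2211 in NC-up as the nearest. The Kdm2b groups overlapped.

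Among the 8 genes of the H3K4 methyltransferase group, 1 rose and 2 fell. Setd7 (gene 73251, chromosome 3, 51515318 to 51560823, minus strand) had 5233, 5557 and 5465 in the SETDB2-up libraries, against 4265, 4579.7 and 4627 in the NC-up libraries. Every SETDB2-up library lay above every NC-up library. Means were 5418 ± 166 in SETDB2-up and 4490.5 ± 197 in NC-up (SD, n = 3 each), with a log2 fold change of 0.27 ± 0.06 SE (adjusted p = 0.00313 by limma), and the call held in 20 of 20 alternatives, at adjusted p up to 0.0465. Setd1b (gene 208043, chromosome 5, 123142040 to 123168630, plus strand), 1 of a pair of catalytic subunits of the complexes that lay down most H3K4 trimethylation, had 1026, 1063 and 991 in the SETDB2-up libraries, against 1276, 1334 and 1301 in the NC-up libraries. The groups were well apart, and the log2 fold change was -0.34 ± 0.07 SE (adjusted p = 0.00218 by limma). Its paralogue Setd1a had overlapping groups, at 1141, 1286 and 1233 in the SETDB2-up libraries, against 1354, 1204 and 1161 in the NC-up libraries, and a log2 fold change of -0.02 ± 0.08 SE. The difference between the paralogues was not tested.

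Kmt2b (MLL2; gene 75410, chromosome 7, 30568855 to 30589056, minus strand), which trimethylates H3K4 at CpG-rich promoters, had 1093, 1123 and 1089.5 in the SETDB2-up libraries, against 1351, 1392 and 1189 in the NC-up libraries. NC-up library 3 came nearest to the SETDB2-up values, and the log2 fold change was -0.25 ± 0.07 SE (adjusted p = 0.0268 by limma). After the GC correction neither fall passed, with -0.15 for Setd1b (adjusted p = 0.223) and -0.05 for Kmt2b (adjusted p = 0.761). The Kmt2b call was also lost without SETDB2-up library 1 or 2, or NC-up library 1 or 2, with log2 fold changes of -0.26 to -0.20 and adjusted p of 0.0606 to 0.126, and without SETDB2-up libraries 1 and 2 together (-0.26, adjusted p = 0.248). Kmt2a (MLL1), the closest relative of Kmt2b, had 2614, 2612 and 2046 in the SETDB2-up libraries, against 2234, 2412 and 2119 in the NC-up libraries, with SETDB2-up library 3 under all 3 NC-up values (log2 fold change 0.10 ± 0.08 SE). The enhancer H3K4 monomethyltransferases Kmt2c and Kmt2d had log2 fold changes of 0.15 ± 0.08 SE and -0.08 ± 0.08 SE, and Kmt2e, whose SET domain has no known activity on histones, had -0.06 ± 0.07 SE. These 4 did not pass.

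All 6 genes of the H3K36 group had positive log2 fold changes, from 0.05 to 0.31 with a median of 0.20, and 2 passed. Of all genes tested, 8199 of 16387 had positive log2 fold changes and 7.71% rose past the threshold. Nsd1 (gene 18193, chromosome 13, 55209782 to 55318325, plus strand), which adds up to 2 methyl groups to H3K36, had 4136, 3908 and 3618 in the SETDB2-up libraries, against 3114, 3278 and 3149.99 in the NC-up libraries. The lowest SETDB2-up value, in library 3, still exceeded the highest NC-up value. The log2 fold change was 0.29 ± 0.06 SE (adjusted p = 0.00355 by limma), and 0.19 after the GC correction (adjusted p = 0.0386). Of the 20 alternatives, the call was lost in 1, without SETDB2-up libraries 1 and 2 (log2 fold change 0.19, adjusted p = 0.251). Setd2 (gene 235626, chromosome 9, 110532500 to 110618633, plus strand), the enzyme that trimethylates H3K36 behind RNA polymerase II, had 1231, 1213 and 1012 in the SETDB2-up libraries, against 845, 994 and 942 in the NC-up libraries. SETDB2-up library 3 lay only just above NC-up library 2, and the log2 fold change was 0.31 ± 0.09 SE (adjusted p = 0.0181 by limma). The Setd2 call was lost after the GC correction (0.17, adjusted p = 0.237) and without SETDB2-up library 1, SETDB2-up library 2 or NC-up library 1 (log2 fold changes of 0.25 to 0.27, adjusted p of 0.0764 to 0.127). It was lowest, at 0.13 (adjusted p = 0.690), without SETDB2-up libraries 1 and 2 together.

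Nsd2, the dimethyltransferase of the same family, had 1741, 1764 and 1582 in the SETDB2-up libraries, against 1461, 1423 and 1566 in the NC-up libraries. Its groups did not overlap, and it missed the threshold (log2 fold change 0.19 ± 0.07 SE, adjusted p = 0.0602 by limma). Ash1l, a trithorax-group H3K36 methyltransferase, had 2175, 2173 and 1761 in the SETDB2-up libraries, against 1671, 1909 and 1705 in the NC-up libraries. Libraries 1 and 2 of SETDB2-up were the highest and library 3 fell within the NC-up range (log2 fold change 0.20 ± 0.08 SE, adjusted p = 0.0876 by limma; 0.087 after the GC correction). Nsd3 and Setd5 had 0.05 ± 0.07 SE and 0.06 ± 0.07 SE on the log2 scale. After the GC correction the median of the 6 was 0.06, beside 0.01 over all genes in that fit, and Nsd2 stood at 0.00 and Nsd3 at -0.03.

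Neither H3K27 methyltransferase passed. Ezh1 had 1958, 1882 and 1968 in the SETDB2-up libraries, against 1619.8, 1755 and 1937 in the NC-up libraries, with NC-up library 3 inside the SETDB2-up range (log2 fold change 0.13 ± 0.07 SE). Ezh2 had 71.2, 77.3 and 59.8 in the SETDB2-up libraries, against 66.7, 70.9 and 80.4 in the NC-up libraries, low values whose groups overlapped throughout (log2 fold change -0.07 ± 0.21 SE). Dot1l, the H3K79 methyltransferase, had 916, 883 and 879 in the SETDB2-up libraries, against 1099.6, 965 and 1034 in the NC-up libraries. Its groups did not overlap, but the log2 fold change of -0.21 ± 0.07 SE missed the threshold (adjusted p = 0.0611 by limma), and after the GC correction it was -0.053. Of the H4K20 enzymes, Kmt5a and Kmt5b had log2 fold changes of -0.11 ± 0.07 SE and 0.14 ± 0.08 SE. Kmt5c, which makes H4K20 trimethylation in heterochromatin, had 377, 348 and 341 in the SETDB2-up libraries, against 492, 516 and 344 in the NC-up libraries. NC-up library 3 was far below the other NC-up libraries and within the SETDB2-up values (log2 fold change -0.32 ± 0.13 SE, adjusted p = 0.0923 by limma). Without that library Kmt5c passed (log2 fold change -0.50, adjusted p = 0.00739 by limma), and after the GC correction it was at -0.098 (adjusted p = 0.736).

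None of the 5 Smyd genes and of the 3 measured Setd genes with mainly non-histone or little studied substrates passed. Setd3 had 3411, 3349 and 3353 in the SETDB2-up libraries, against 2963, 2932 and 3319.8 in the NC-up libraries, with non-overlapping groups that lay close together (log2 fold change 0.14 ± 0.06 SE, adjusted p = 0.134 by limma). Smyd3, a methyltransferase with cytoplasmic kinase substrates, had 550.04, 543 and 568 in the SETDB2-up libraries, against 475, 535 and 537 in the NC-up libraries, again just apart (log2 fold change 0.10 ± 0.09 SE). Smyd2, Smyd4 and Smyd5 had -0.04 ± 0.08 SE, 0.05 ± 0.12 SE and -0.15 ± 0.09 SE on the log2 scale. Setd6, which methylates the NF-kB subunit RelA, had -0.21 ± 0.13 SE, and lies opposite Cnot1 over 2577 bases. Cnot1 has 11.4 times the reads of Setd6 and had a log2 fold change of 0.21 ± 0.06 SE (adjusted p = 0.0216 by limma). After the GC correction Cnot1 was at 0.10 (adjusted p = 0.299 by limma). Setd4 (0.29 ± 0.21 SE) and Smyd1 (0.11 ± 0.28 SE) were low, with highest libraries of 104 and 59.8 normalised reads, and had, with Ezh2, the widest errors of the members.

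**Figure D3:**
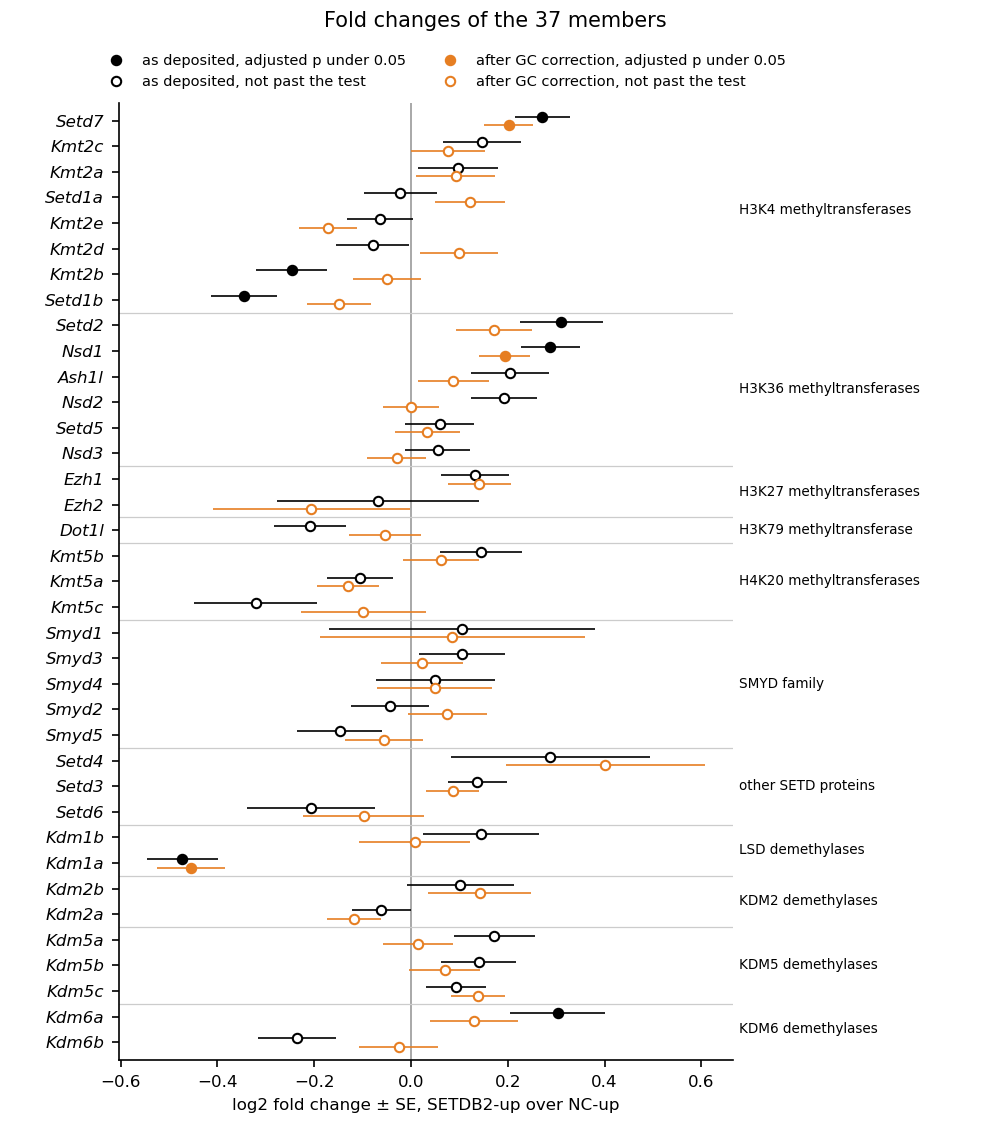
Log2 fold change of SETDB2-up over NC-up ± SE (limma, n = 3 libraries each) for the 37 members by role, from the values as deposited (black) and after GC correction (orange); filled points have an adjusted p under 0.05. Setd7, Nsd1 and Kdm1a are filled in both; Setd1b, Kmt2b, Setd2 and Kdm6a lie nearer 0 after the correction.

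The fold changes of these genes followed the base composition of their transcripts. Across the 37 members the log2 fold change and GC content had a Spearman correlation of -0.69, beside -0.56 across 15507 genes. After the correction, which is built to remove such a trend, these were -0.10 and -0.01. Genes are not independent replicates, and all share the same 6 libraries. The 5 members in the highest decile of GC content (Setd1b, Kmt2b, Kmt5c, Kdm6b and Kmt2d, at least 58.35% GC) had a median log2 fold change of -0.25, beside -0.24 for all 1551 genes of that decile. The 5 members in the second lowest decile (Setd2, Kdm6a, Kdm5a, Kdm1b and Ezh2) had a median of 0.17, as had all 1551 genes there (0.17). In deciles 3 to 7 the members' medians were higher, at 0.20, 0.14, 0.08, 0.07 and 0.10. All genes there had 0.12, 0.08, 0.04, 0.00 and -0.05. Deciles 1, 8 and 9 had 0.19, -0.09 and -0.12 for members, beside 0.22, -0.10 and -0.14. Whether members differ from genes of like GC content was not tested. Kdm1a, at 51.7% GC, lies in a decile whose median was 0.00. The H3K36 group had a median GC content of 45.97%, beside 50.2% over all genes. Libraries of 1 group also deviated with GC content. The difference of a library from the mean of its group's other 2 had Spearman correlations with GC content, across the members, of -0.39, -0.12 and 0.36 in SETDB2-up libraries 1, 2 and 3, and of 0.46, 0.14 and -0.54 in NC-up libraries 1, 2 and 3. Across all genes these were -0.33, -0.11 and 0.37 in SETDB2-up, and -0.06, 0.12 and -0.06 in NC-up. In NC-up libraries 1 and 3 the members thus followed GC content more than all genes did, a difference that was not tested.

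**Figure D4:**
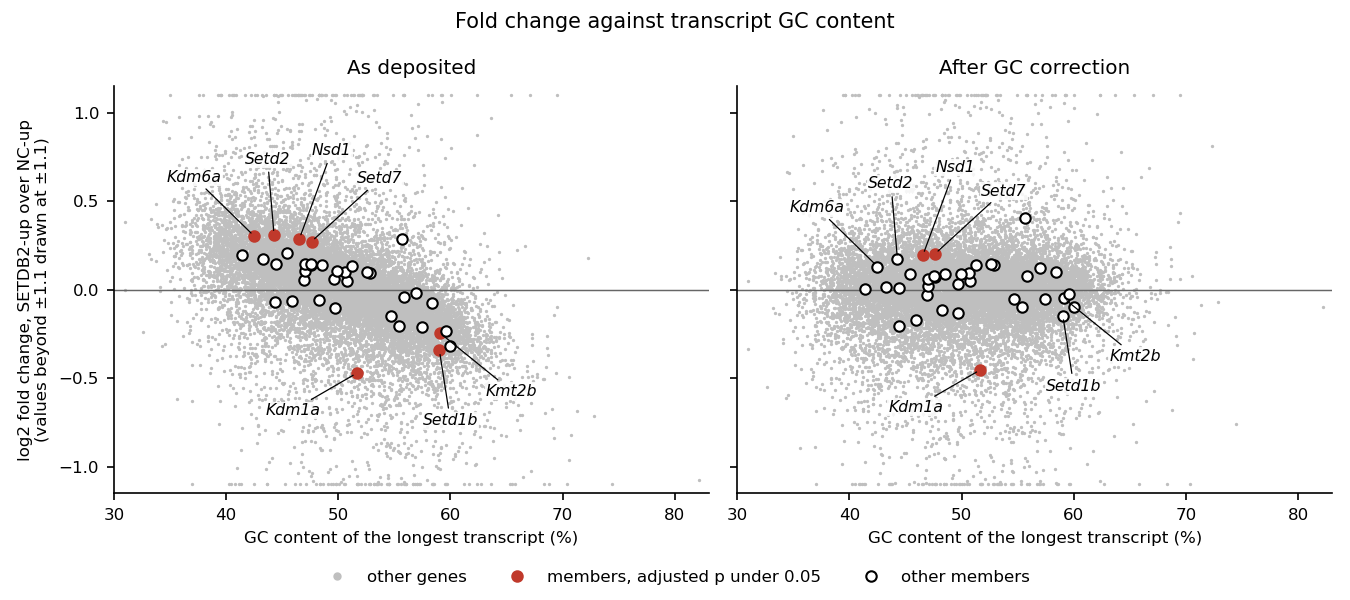
Log2 fold change of SETDB2-up over NC-up against GC content of the longest transcript (%), before (left) and after (right) GC correction; grey points are other genes, red points members with an adjusted p under 0.05 and open points other members. On the left the members fall from left to right with the grey cloud (Spearman correlation -0.69). On the right, where the correction removes the trend by design, they do not (-0.10), and Kdm1a stays at -0.45.

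Leaving out SETDB2-up library 3 kept every call of the main test and added further rises. Across the 37 members the difference of library 3 from the mean of the other 2 SETDB2-up libraries had a Spearman correlation of -0.45 with transcript length, and across all genes of -0.26. The members lowest in it by this measure were Kmt2a (-0.35), Ezh2 (-0.31) and Ash1l (-0.30, all on the log2 scale), of which Kmt2a and Ash1l have long transcripts and Ezh2 a short one. Without SETDB2-up library 3, Nsd2, Ash1l, Kdm5a, Kmt2c and Kmt2a also rose past the threshold, with log2 fold changes of 0.21 to 0.31 and limma adjusted p of 0.00274 to 0.0272. That made 9 rises in all (24.3% of the members, beside 9.32% of all genes tested) and 12 calls in either direction (32.4%, beside 20.4%). The SETDB2-up libraries left in that fit, 1 and 2, are those that hold the hepatocyte transcripts. Without libraries 1 and 2 instead, Kmt2a was at -0.14 and Kmt2c at -0.036. Ash1l and Kdm5a were then close to 0, at 0.0026 and 0.0062, and Nsd2 stayed above 0. The part of the hepatocyte transcripts in these rises was not tested.

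Promoters are shown for the members past the test that have an entry in the RefSeq table (GRCm38.p6, from 250 bases before to 50 after a transcript start, 300 in all): Kdm1a, Setd7, Setd2 and Kdm6a. They are given because the study's title places the zinc-finger factor KLF4, a binder of CACCC boxes, beside SETDB2, and Klf4 was itself lower here, at 118, 147 and 101 normalised reads in SETDB2-up and 216, 203 and 175 in NC-up (log2 fold change -0.71 ± 0.16 SE, adjusted p = 0.00612 by limma). Capitals mark CACCC, or GGGTG where the motif is on the other strand. The windows are chr4:136602674-136602973 (minus strand) for Kdm1a, chr3:51560774-51561073 (minus strand) for Setd7, chr9:110532347-110532646 (plus strand) for Setd2 and chrX:18162325-18162624 (plus strand) for Kdm6a, each printed 5′ to 3′.
Kdm1a: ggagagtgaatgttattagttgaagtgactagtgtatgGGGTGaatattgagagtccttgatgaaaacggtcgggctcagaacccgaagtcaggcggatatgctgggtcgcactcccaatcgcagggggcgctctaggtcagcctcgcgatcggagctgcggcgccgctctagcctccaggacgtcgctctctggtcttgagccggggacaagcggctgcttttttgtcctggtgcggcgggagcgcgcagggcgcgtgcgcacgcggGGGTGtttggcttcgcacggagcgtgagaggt
Setd7: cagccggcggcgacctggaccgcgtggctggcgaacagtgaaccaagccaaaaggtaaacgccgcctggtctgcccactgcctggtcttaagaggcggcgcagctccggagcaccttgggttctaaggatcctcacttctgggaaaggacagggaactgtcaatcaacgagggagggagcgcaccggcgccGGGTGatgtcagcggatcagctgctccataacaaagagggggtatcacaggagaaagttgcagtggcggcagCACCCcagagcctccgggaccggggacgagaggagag
Setd2: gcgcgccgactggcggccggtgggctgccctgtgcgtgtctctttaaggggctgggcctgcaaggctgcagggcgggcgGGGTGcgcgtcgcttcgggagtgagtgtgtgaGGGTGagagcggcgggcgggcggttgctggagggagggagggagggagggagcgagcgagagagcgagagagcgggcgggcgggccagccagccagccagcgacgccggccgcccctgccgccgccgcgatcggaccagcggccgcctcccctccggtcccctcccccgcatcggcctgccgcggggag
Kdm6a: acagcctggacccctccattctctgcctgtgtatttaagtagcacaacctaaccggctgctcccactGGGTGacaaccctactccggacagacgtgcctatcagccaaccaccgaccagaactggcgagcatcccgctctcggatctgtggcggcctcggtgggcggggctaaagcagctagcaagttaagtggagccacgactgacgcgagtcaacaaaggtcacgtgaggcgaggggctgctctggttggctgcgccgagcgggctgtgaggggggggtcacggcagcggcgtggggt
The Kdm6a window starts from a transcript start 1713 bases into the gene as the deposited table places it. The motif occurred 2 times in the Kdm1a, Setd7 and Setd2 windows and 1 time in that of Kdm6a. Over 26 members with an entry, 25 of 33 windows (75.8%) held it, and 57.5% of all 32851 promoter windows did, so that a match is common. The same windows were rich in CpG: 29 in Kdm1a, 21 in Setd7, 38 in Setd2 and 21 in Kdm6a, and a median of 28 over the members' 33 windows, beside 7 over all windows. Smyd1, with 3 CpG in its window, and Setd5, with 1 in a window that starts 27673 bases into the gene, were the lowest of the members. Nsd1, Setd1b, Kmt2b, Nsd2, Nsd3, Kdm6b, Ash1l, Kdm5a, Kdm2a, Smyd3 and Kmt2e had no entry.

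Partners of these enzymes were described from 6 lists with 76 genes, all tested. Of these, 5 rose and 10 fell (limma adjusted p under 0.05), with a median log2 fold change of -0.01, beside 7.71% of all genes that rose and 8.71% that fell. After the GC correction 2 rose and 4 fell, of which Yaf2, a PRC1 subunit, had not passed without it.

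The LSD1 and CoREST list had 1 rise and 2 falls among 11 genes. Rcor2, a CoREST scaffold that holds LSD1 on nucleosomes, had 165, 183 and 178 in the SETDB2-up libraries, against 317, 284 and 279 in the NC-up libraries. All SETDB2-up values were lower, with a log2 fold change of -0.74 ± 0.12 SE (adjusted p = 5.19e-04 by limma; -0.47 and adjusted p = 0.0304 after the GC correction). Hmg20b, a DNA-binding subunit of the same complex, had -0.36 ± 0.08 SE (adjusted p = 0.00591 by limma), and -0.07 after the correction, where it did not pass. The zinc-finger subunit Zmym2 rose, at 1491, 1388 and 1351 in the SETDB2-up libraries, against 935, 898 and 969 in the NC-up libraries (log2 fold change 0.59 ± 0.07 SE, adjusted p = 2.56e-05 by limma), and kept its call in 20 of 20 alternatives. After the correction its log2 fold change was 0.37 (adjusted p = 0.00187).

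Of 14 COMPASS and MLL partners 2 fell. Psip1 (LEDGF), a chromatin reader that tethers the MLL1 complex and binds H3K36-methylated nucleosomes, had 2001, 1903 and 1687 in the SETDB2-up libraries, against 2401, 2492 and 2543 in the NC-up libraries. The groups were well apart, at a log2 fold change of -0.41 ± 0.07 SE (adjusted p = 4.83e-04 by limma). Its transcript has 42.5% GC, and after the correction its log2 fold change was -0.59 (adjusted p = 8.56e-06). Bod1 had -0.23 ± 0.07 SE and did not pass after the correction. The shared core subunit Rbbp5 did not pass (0.16 ± 0.07 SE, adjusted p = 0.136 by limma).

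Of 10 PRC2 partners 2 fell. Aebp2, an accessory subunit that aids PRC2 binding to nucleosomes, had 1009, 1098 and 1015 in the SETDB2-up libraries, against 1299.9, 1359 and 1386 in the NC-up libraries. No SETDB2-up library reached the NC-up range, and the log2 fold change was -0.37 ± 0.07 SE (adjusted p = 0.00135 by limma). It too was larger after the correction, at -0.57 (adjusted p = 5.57e-05), on a transcript of 40.9% GC. Phf1 had -0.25 ± 0.08 SE and did not pass after the correction (-0.03). Of 20 PRC1 subunits 2 rose and 2 fell. Among them Pcgf5 had 0.53 ± 0.14 SE, Phc2 -0.27 ± 0.07 SE and Ring1 -0.25 ± 0.08 SE on the log2 scale, and none of the 3 passed after the correction.

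Readers of H3K36 or H4K20 methylation held 2 rises and 1 fall among 11. Morf4l1 (MRG15), whose chromodomain binds methylated H3K36, had 8113, 7481 and 7109 in the SETDB2-up libraries, against 5923, 5639 and 6137 in the NC-up libraries. Every SETDB2-up value was higher, with a log2 fold change of 0.36 ± 0.06 SE (adjusted p = 5.33e-04 by limma; 0.24 and adjusted p = 0.00870 after the correction). Its homologue Morf4l2 had 0.28 ± 0.06 SE (adjusted p = 0.00299 by limma), and missed the threshold after the correction (0.17, adjusted p = 0.0685). Brpf1 fell (-0.26 ± 0.08 SE) and did not pass after the correction. Of 10 DOT1L partners and elongation factors, Mllt6 fell (-0.21 ± 0.06 SE, adjusted p = 0.0274 by limma), again without passing after the correction.

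**Figure D5:**
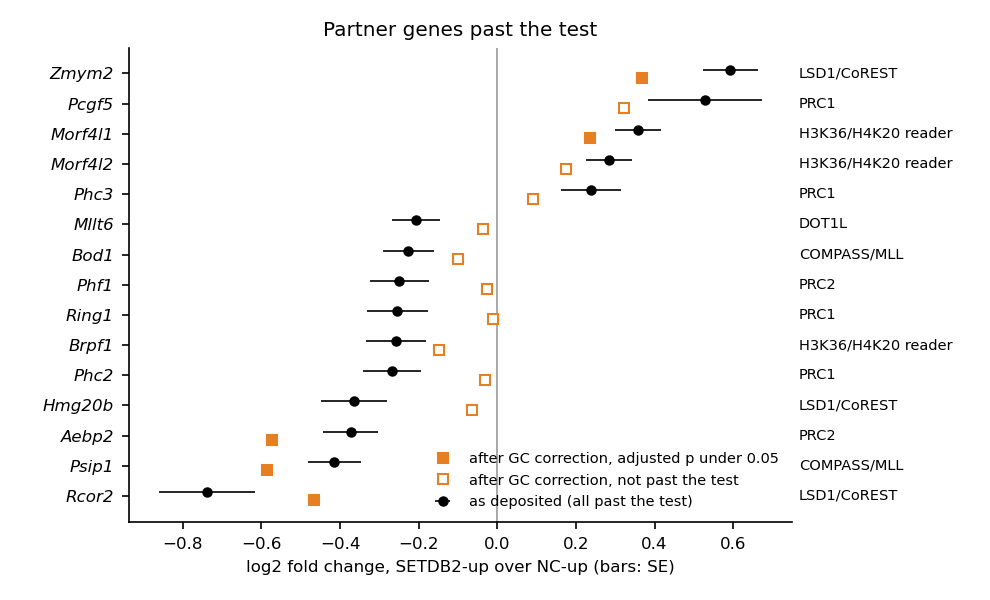
Log2 fold change of SETDB2-up over NC-up for the 15 partner genes past the test, as deposited (black, with SE) and after GC correction (orange; filled squares have an adjusted p under 0.05). Zmym2 and Morf4l1 above 0, and Rcor2, Psip1 and Aebp2 below 0, are filled after the correction.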

How the data were processed

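Trigeminal ganglion RNA was sequenced in 3 SETDB2-up and 3 NC-up libraries; per the labels' protocols it was poly(A)-enriched and made into strand-specific libraries, and sequenced in pairs. The submitters' processing notes name HISAT2, FastQC and GRCm38. The sources used here do not give the program that counted reads, whether it used strand, its annotation or the size-factor method. The deposited table holds a normalised signal: read counts that the authors divided by 1 factor per library, as the values show, since 100% are whole multiples of their library's step (tolerance 0.001 read). Depth per library is the sum of recovered reads; 3 reads correspond to 0.128 to 0.155 CPM, and counting error is only part of the error.

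The main test was limma 3.58.1 (R 4.3.3, mean-variance trend) on log2(value + 1) for genes with at least 1 in at least 3 libraries (16387 genes, 28 removed), Benjamini-Hochberg adjusted. The pseudocount understates changes of low genes. EdgeR 4.0.16 with TMM normalization on the recovered reads, an alternative, called 2695 genes. Its RLE and upper-quartile normalizations, DESeq2 1.42.0 and limma-voom were further alternatives. The GC correction removed, in each library, a loess trend (span 0.3) of the deviation from the gene mean on GC content of the longest GENCODE M21 transcript, matched for 15535 genes (94.6%) and all 37 members. Because the gene mean is over both groups, the correction also removes any difference between the groups that follows GC content, whatever its source. The fits were tested on simulated data with the same spread setting for every gene. Those data held no GC trend, foreign tissue or deviating library, so they do not test the fits against these. Every member is named; partner lists name up to 3 genes each, with the smallest p, and Luzp1 and Cnot1 are named for their overlap with members, Klf4 from the study's title, and Yaf2, Uty and Kdm5d after their values were seen. The members and lists were chosen with earlier results of these data known.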

Additional observations from a re-analysis of the deposited data

How the results depend on the processing

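The GC correction left 2 rises and 1 fall of the 4 rises and 3 falls among the members (840 genes called over all, 285 upward and 555 downward, against 2690, 1263 and 1427). With 1 library left out the members' rises ranged from 2 to 9 and their falls from 2 to 5, and all calls ranged from 1082 to 3335 (1082 without SETDB2-up library 1, 1575 without SETDB2-up library 2 and 1611 without NC-up library 2). Rises among the members were 9 without SETDB2-up library 3, and falls were 5 without NC-up library 3. Without SETDB2-up libraries 1 and 2 there was 1 rise, and 447 genes were called. Other normalizations, filters, pseudocounts and tools gave 4 rises and 3 or 4 falls, the additional fall being Kdm6b. The replicate block gave 6 rises and 6 falls, where 3618 of 16387 genes were called over all, 1695 upward and 1923 downward. The block with the GC correction gave 2 rises and 2 falls (Kmt2e joined Kdm1a), with 1689 genes called over all. Same-numbered libraries had correlations of 0.036 to 0.048 in their deviations from the group means, the highest for each library. Those of unlike number had -0.035 to -0.0056. The correlations are small, and the labels do not say that a number marks a pair, so whether the libraries are paired is not known. Kdm1a and Setd7 kept their calls in all 20 alternatives, and Nsd1 in 19.

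Of the members' fold changes, 193 kept direction and call with 1 library left out, 12 lost a call and 7 gained one; under the other alternatives 484 kept both, 12 lost a call and 9 gained one. No member past the test changed sign. Of the others, the GC correction, with or without the block, gave -0.030 for Nsd3, 0.10 for Kmt2d, 0.075 for Smyd2 and 0.12 for Setd1a. Without SETDB2-up libraries 1 and 2, Kmt2c was at -0.036, Kmt5b at -0.010, Kmt2a at -0.14, Setd5 at -0.086 and Nsd3 at -0.017. With 1 library left out, log2 fold changes that crossed 0 ranged from -0.15 to 0.0041 for Kmt2d, -0.12 to 0.025 for Smyd2, -0.071 to 0.12 for Smyd4, -0.075 to 0.33 for Smyd1, -0.067 to 0.043 for Setd1a and -0.15 to 0.034 for Ezh2. Depth limits Smyd1, Ezh2 and Setd4 most, at no more than 59.8, 80.4 and 104 normalised reads in any library. The cause of these shifts was not tested.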

Other observations

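The Y chromosome carries a paralogue of Kdm5c, Kdm5d, and one of Kdm6a, Uty, which the name rule leaves out. Both were detected in all 6 libraries, and both were higher in SETDB2-up. Kdm5d had 369.5, 333 and 309 in the SETDB2-up libraries, against 266, 201 and 246 in the NC-up libraries (log2 fold change 0.51 ± 0.13 SE, adjusted p = 0.00958 by limma; 0.36 and adjusted p = 0.0859 after the GC correction). Uty had 360.04, 362 and 278 in the SETDB2-up libraries, against 233, 263 and 209 in the NC-up libraries (log2 fold change 0.50 ± 0.13 SE, adjusted p = 0.0135 by limma; 0.22 and adjusted p = 0.325 after the correction). The 3 SETDB2-up values exceeded the 3 NC-up values for each gene. These 2 genes were chosen after their values were seen.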
